A study of Mus musculus with 24 samples.

Results

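The genes described here belong to the machinery of major histocompatibility complex (MHC) antigen presentation: the class I heavy chains H2-K1 and H2-D1, the class I light chain B2m, the peptide transport and loading genes Tap1 and Tapbp, and the class II genes Cd74, H2-Aa and H2-Ab1. They were taken by symbol from a table of read counts with 55359 genes, and all 8 were found by their Ensembl identifiers. Oligodendrocytes, the myelin-forming cells of the brain, came from C57BL/6J pups 5 to 7 days old, whose cortex was dissociated and sorted with magnetic beads against O4, a surface antigen of immature oligodendrocytes. All cultures were differentiated for 3 days with triiodothyronine (T3) as the main factor and were then held for 3 days with or without ethanol. Experiment 1, the first batch in the labels, had 6 control wells (0 mM) and 6 wells with 30 mM ethanol, and experiment 2, the second batch, had 6 control wells (0 mM) and 6 wells with 10 mM ethanol. All 24 wells thus shared strain, sort and differentiation, and no group carried a genetic change. Control plates stood in another incubator than the ethanol plates, so the effect of ethanol and that of the incubator cannot be told apart, and neither can dose, experiment and batch. The labels call the wells biological replicates and do not say which pups or cultures each came from, so p-values measure the spread between these wells, which may be partly technical.

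Class I molecules present peptides from inside the cell to CD8+ T cells. Each is a heavy chain bound to β2-microglobulin (B2m), and it is loaded in the endoplasmic reticulum with peptides that the TAP transporter, a pair of TAP1 and TAP2, pumps in from the cytosol, while tapasin (Tapbp) holds the empty molecule at the transporter. Class II molecules present peptides from endosomes to CD4+ T cells, are paired chains such as those encoded by H2-Aa and H2-Ab1, and are guided by the invariant chain (Cd74). Healthy brain parenchyma is known for low MHC levels, oligodendrocytes can raise class I under interferon gamma, and microglia and border macrophages are the usual class II-bearing cells of the brain.

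The promoters of H2-K1, H2-D1, B2m, Tap1 and H2-Aa are shown because the genes are known to share control elements. Each line gives the 250 bases before the gene's annotated start, 5′ to 3′ on the gene's strand, from RefSeq (GRCm38.p6). Capitals mark the letters CCAAT on either strand (the core of the Y box), GAAA and GAAA with any 2 bases between them, on either strand (the core of the interferon-stimulated response element), or a kappa B site, the 11 capitals in a row of H2-K1 and H2-D1.
H2-K1: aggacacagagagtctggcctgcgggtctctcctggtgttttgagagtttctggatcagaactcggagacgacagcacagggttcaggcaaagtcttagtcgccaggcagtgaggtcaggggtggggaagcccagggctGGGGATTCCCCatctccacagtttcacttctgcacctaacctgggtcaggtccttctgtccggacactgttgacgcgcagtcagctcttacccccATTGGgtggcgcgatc
H2-D1: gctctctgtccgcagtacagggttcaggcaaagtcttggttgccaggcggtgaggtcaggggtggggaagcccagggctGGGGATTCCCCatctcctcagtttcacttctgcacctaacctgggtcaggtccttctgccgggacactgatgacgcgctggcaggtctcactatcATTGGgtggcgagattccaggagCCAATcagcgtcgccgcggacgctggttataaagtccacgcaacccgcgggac
B2m: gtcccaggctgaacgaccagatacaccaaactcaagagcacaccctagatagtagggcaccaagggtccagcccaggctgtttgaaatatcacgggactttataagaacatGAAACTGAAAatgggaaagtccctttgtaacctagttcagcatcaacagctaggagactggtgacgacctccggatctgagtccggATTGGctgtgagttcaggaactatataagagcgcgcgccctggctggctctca
Tap1: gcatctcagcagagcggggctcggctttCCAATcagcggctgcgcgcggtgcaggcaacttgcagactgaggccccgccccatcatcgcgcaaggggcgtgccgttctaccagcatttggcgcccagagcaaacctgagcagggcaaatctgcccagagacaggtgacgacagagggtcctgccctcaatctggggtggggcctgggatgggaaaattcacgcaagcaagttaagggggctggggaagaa
H2-Aa: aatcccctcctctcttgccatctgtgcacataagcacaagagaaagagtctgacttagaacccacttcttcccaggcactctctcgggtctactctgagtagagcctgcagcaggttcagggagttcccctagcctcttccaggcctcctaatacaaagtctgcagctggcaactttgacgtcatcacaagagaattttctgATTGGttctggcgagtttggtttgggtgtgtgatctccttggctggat
These lie at chr17:34000348-34000597 on the minus strand (H2-K1), chr17:35262844-35263093 on the plus strand (H2-D1), chr2:122147437-122147686 on the plus strand (B2m), chr17:34187306-34187555 on the plus strand (Tap1) and chr17:34287824-34288073 on the minus strand (H2-Aa). Promoters were matched for 6 members, these and Tapbp, and each of the 6 held CCAAT, as did 34.5% of 27025 mouse promoters of the same length. The kappa B site stood in the promoters of H2-K1, at 111 to 101 bases before the start, and of H2-D1, at 171 to 161 bases before it. These letters were in 7 promoters in all, or 0.0259%. The exact letters of the response element core were in 1 of the 6, B2m, at 139 to 130 bases before the start, and in 3.05% of all promoters. Variants of this pattern were not searched, so the other promoters, H2-K1 and H2-D1 among them, may still hold an interferon response element. The H2-K1 and H2-D1 stretches aligned over 177 columns with 161 identical (91%). A match of letters is a description and not evidence that a factor binds there.

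Counts came from 3′ tag sequencing, in which reads start near the 3′ end of a transcript and do not scale with its length, and levels are given in CPM, the counts scaled to the size of the library, with TMM factors over all wells. A well held between 1184609 and 1817028 counts, so that 3 counts, taken as the floor, stood for 1.70 to 2.53 CPM, and floors cover counting error only. Summed over 10 oligodendrocyte markers, including Mbp and Mog, the level lay between 6878 and 16611 CPM in all wells, and the highest value belonged to replicate 1 of the 30 mM wells, which stood apart from its group, whose next value was 9761 CPM. Other cells were present. The summed level of 7 astrocyte markers lay between 3553 and 6343 CPM. The summed level of 14 microglia markers lay between 219 and 385 CPM in experiment 1 and between 3052 and 3878 CPM in experiment 2.

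The class I genes were clearly present in every well, and the class II genes were near the floor. On the tag scale, B2m was the most abundant member, with group means from 289 to 308 CPM. H2-K1 followed with group means from 139 to 160 CPM, Tapbp with 110 to 128 CPM and H2-D1 with 75.4 to 94.5 CPM. Tap1 was the least abundant of the class I members, with group means from 25.5 to 42.1 CPM. Cd74 and H2-Ab1 had group means between 2.38 and 3.89 CPM, and H2-Aa between 0.349 and 0.551 CPM. All 5 class I members passed the filter on low counts in every comparison and none of the 3 class II members passed in any, so tests refer to the 5.

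**Figure D1:**
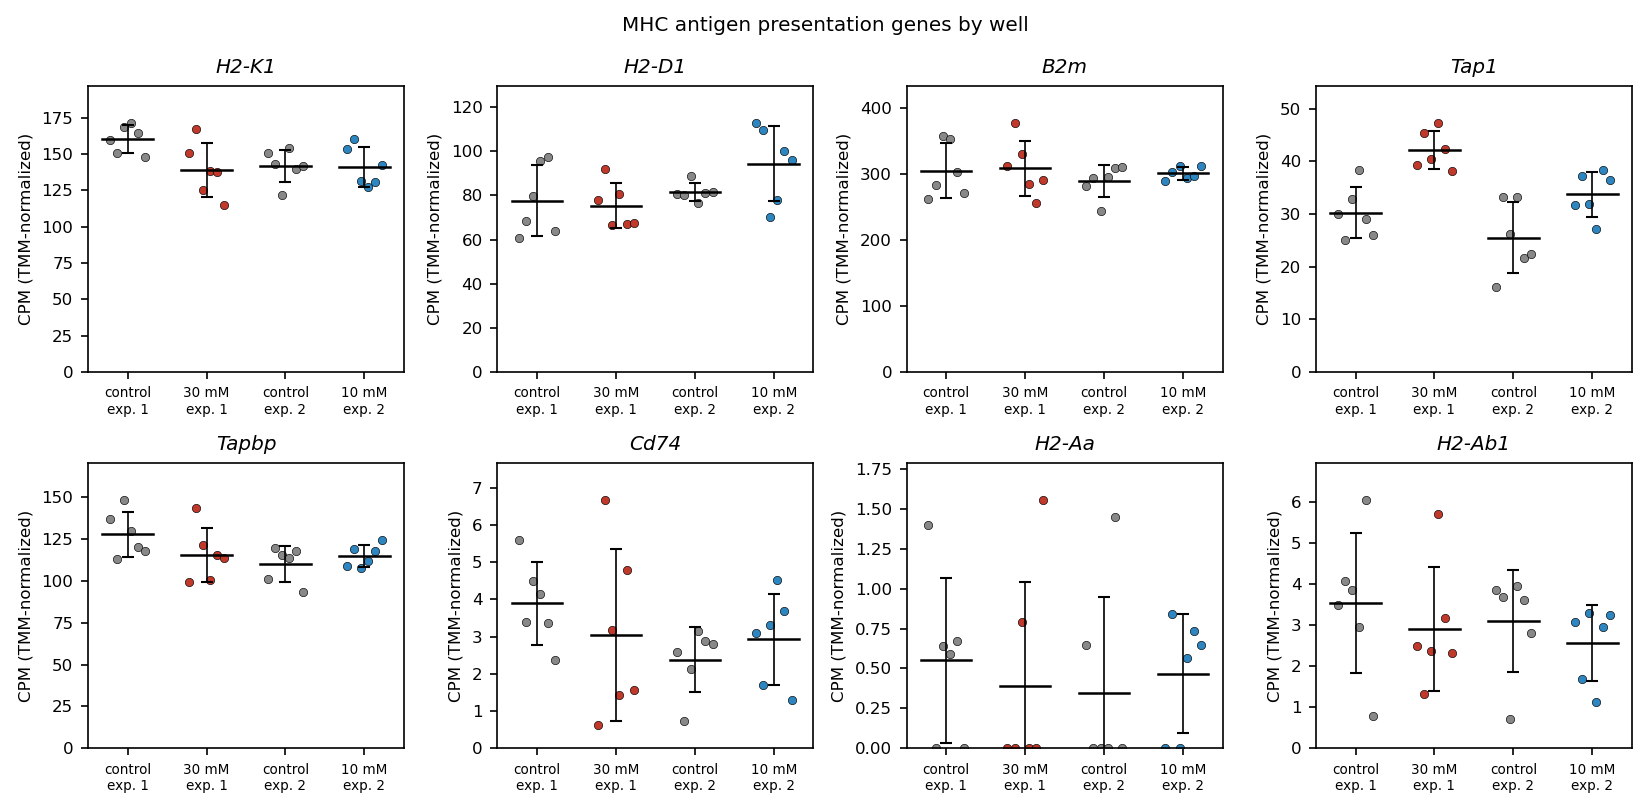
Level of each of the 8 genes by well, in TMM-normalized CPM on a linear axis that starts at 0; points are wells, horizontal lines are group means and bars are 1 SD (n = 6 wells a group). The Tap1 points of the 30 mM wells, between 38.1 and 47.2 CPM, lie above every experiment 1 control in 5 of 6 cases. The ranges of the other class I genes overlap between groups, although most H2-K1 points at 30 mM lie below the lowest control of experiment 1. The class II genes stay under 7 CPM.

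Tap1 was the member that changed with 30 mM ethanol. The 30 mM wells had a lowest level of 38.1, a median of 41.4 and a highest of 47.2 CPM, against 25.1, 29.5 and 38.4 CPM in the experiment 1 controls. All 30 mM wells were thus above the second highest control well, and the groups met at a single well of each. On the log2 scale Tap1 was higher by 0.52 (SE 0.125, 95% interval 0.26 to 0.77, edgeR quasi-likelihood test, adjusted p = 0.00445). It was called in each of the 7 other settings tried, with adjusted p from 0.00364 to 0.0237. Leaving out any 1 of the 12 wells kept the call, with log2 fold changes from 0.47 to 0.59. Without replicate 1 of the 30 mM wells the log2 value was 0.55 (edgeR adjusted p = 0.00294). With TMM factors from the 12 wells alone, a scaling added after seeing the data, the groups did not overlap, with 37.8 CPM in the lowest 30 mM well and 37.0 CPM in the highest control well. On the printed scale, where Tap1 overlapped, the 30 mM wells lay above all controls for 0.612% of all genes. No such share was computed with the factors of the 12 wells alone.

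In all, 1 of the 5 members tested at 30 mM was called, and 9.67% of 13235 genes were called in that comparison, with 3.02% of the 13235 called as higher. In the same comparison 8 of 10 oligodendrocyte markers, with a median log2 fold change of 0.44, and 4 of 7 astrocyte markers were higher, and 4 of 8 mural cell and fibroblast markers were lower. Of the markers of antigen-presenting cells, 2 of 8 tested for microglia and 1 of 2 for dendritic cells were higher, and 1 of 3 for border macrophages was lower. The mean summed level moved from 8229 to 10757 CPM for oligodendrocyte markers, from 4318 to 5292 CPM for astrocyte markers and from 814 to 378 CPM for mural cell and fibroblast markers. It moved from 304 to 307 CPM for microglia markers and from 103 to 67.9 CPM for border macrophage markers, and was 33.8 CPM at 30 mM for dendritic cell markers, above its control mean. Without replicate 1 of the 30 mM wells, left out after seeing the data, the mean of the oligodendrocyte markers was 9586 CPM and their median log2 fold change 0.30, with 8 of 10 called higher. The part of these shifts in the Tap1 result was not tested. In such bulk samples fewer cells of a type and less RNA per cell cannot be told apart.

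At 10 mM, Tap1 lay in the same direction without passing the test. The 10 mM wells ran from 27.2 over a median of 34.1 to 38.3 CPM, and the experiment 2 controls from 16.1 over 24.4 to 33.2 CPM. The groups overlapped. The log2 fold change was 0.39 (SE 0.141, 95% interval 0.11 to 0.67, edgeR unadjusted p = 0.0074, adjusted p = 0.252), and no other setting or left-out well gave a call, although DESeq2 gave no adjusted p for it (unadjusted p = 0.0221). The difference between the 2 responses was 0.12 on the log2 scale (95% interval -0.27 to 0.50, edgeR adjusted p = 0.803), so the responses at 30 mM and 10 mM were not shown to differ, and the interval leaves room for a difference as large as the response at 10 mM itself. In the order of group means Tap1 stood highest in the 30 mM wells (42.1 CPM ± 3.57, SD, n = 6), then in the 10 mM wells (33.7 ± 4.26), the experiment 1 controls (30.2 ± 4.88) and the experiment 2 controls (25.5 ± 6.79). The 10 mM wells and the experiment 1 controls overlapped, and so did the controls of the experiments, whose difference was 0.23 (SE 0.148, edgeR adjusted p = 0.209).

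The heavy chain H2-K1 was not called at either dose. The 30 mM wells had a lowest level of 115, a median of 138 and a highest of 168 CPM, and their controls 148, 162 and 171 CPM. Most 30 mM wells lay below the lowest control, and 2 lay within the control range. The log2 fold change was -0.16 (SE 0.0752, 95% interval -0.31 to -0.00334), with an edgeR unadjusted p of 0.0454 and an adjusted p of 0.201. At 10 mM the wells ran from 127 over 137 to 160 CPM and their controls from 122 over 142 to 154 CPM. The fitted log2 value was -0.03, with an SE of 0.0713 (edgeR adjusted p = 0.919). The spread between wells was wider with ethanol at 30 mM, with an SD of 18.5 CPM against 9.44 CPM in the controls, a difference that was not tested.

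H2-D1, the second heavy chain, showed no called difference. Its wells ran from 66.7 over 72.8 to 92.1 CPM at 30 mM and from 60.7 over 74.1 to 97.6 CPM in the controls, so the control range enclosed that of the 30 mM wells. The log2 fold change at 30 mM was 0.00204 with a 95% interval from -0.21 to 0.21 (edgeR adjusted p = 0.994). At 10 mM the wells ran from 70.2 over 98.1 to 113 CPM, against a narrow control range of 76.7 over 80.9 to 88.7 CPM. There 4 of the 6 wells lay above all controls and 1 lay below them. The fitted log2 value was 0.17, with an SE of 0.0882 (95% interval -0.000965 to 0.35, edgeR adjusted p = 0.499).

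B2m, which joins every class I heavy chain, showed no called difference either. Wells with 30 mM ethanol ran from 256 over 301 to 377 CPM, and their controls from 262 over 293 to 358 CPM. With 10 mM they ran from 289 over 299 to 312 CPM, and their controls from 243 over 295 to 311 CPM. All 4 groups overlapped. The log2 fold change was 0.06 at 30 mM (95% interval -0.09 to 0.21, edgeR adjusted p = 0.665) and 0.04 at 10 mM (95% interval -0.08 to 0.16, edgeR adjusted p = 0.889). A change of the size seen for Tap1 lies outside both intervals.

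Tapbp, the tapasin gene, ran from 99.6 over 115 to 144 CPM at 30 mM and from 113 over 125 to 149 CPM in the controls. With 10 mM it ran from 108 over 115 to 125 CPM, and in those controls from 93.3 over 115 to 120 CPM. Both pairs of groups overlapped over most of their range. The log2 fold changes were -0.10 (95% interval -0.27 to 0.08, edgeR adjusted p = 0.523) and 0.04 (95% interval -0.11 to 0.19, edgeR adjusted p = 0.90). So the transporter gene rose at 30 mM while the tapasin gene that works beside it gave a value of the other sign that did not pass. Of the 5 members, 0 were called at 10 mM by edgeR or limma voom, and 0 of the 4 with an adjusted p by DESeq2, where edgeR called 0.657% of 13538 genes, and 1 of them, Tap1, had an unadjusted p under 0.05. None differed between the responses of the experiments, with edgeR adjusted p from 0.517 to 0.97, where 3.28% of 14655 genes did, and none had an unadjusted p under 0.05.

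**Figure D2:**
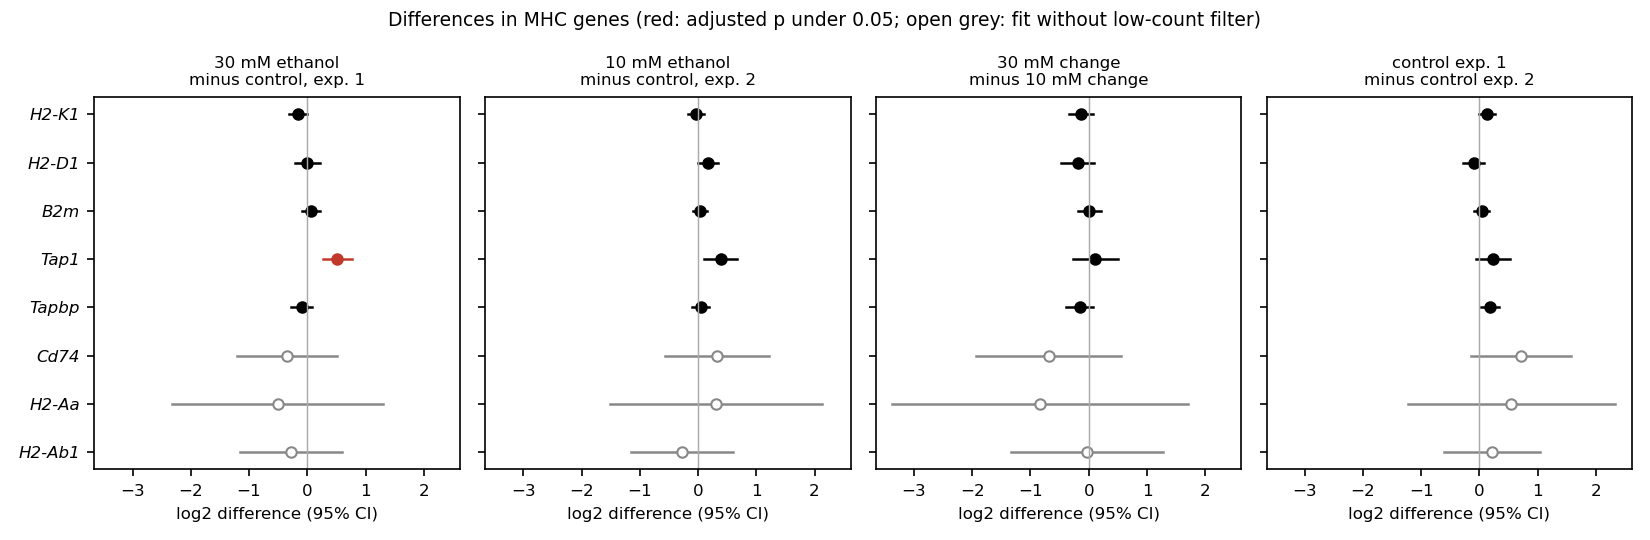
Log2 differences of the 8 genes with 95% intervals in the 4 comparisons; the vertical line marks 0, red marks an adjusted p under 0.05, black the other tested genes, and open grey the class II genes, fitted without the low-count filter. Tap1 at 30 mM, 0.52 with an interval of 0.26 to 0.77, is the red point, and the grey intervals are several times wider than the black ones.

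Cd74, which escorts class II molecules, had between 1 and 10 counts in a well. It ran from 0.623 over 2.37 to 6.68 CPM at 30 mM, from 2.36 over 3.76 to 5.58 CPM in those controls, from 1.30 over 3.20 to 4.53 CPM at 10 mM and from 0.738 over 2.69 to 3.16 CPM in the controls of experiment 2. The 30 mM wells included both the lowest and the highest value, and all groups overlapped. H2-Ab1, the β chain of the I-A molecule, had between 1 and 9 counts a well, with medians of 2.44 CPM at 30 mM, 3.67 CPM in those controls, 3.02 CPM at 10 mM and 3.65 CPM in the controls of experiment 2. H2-Aa, the α chain of the same molecule, had 0, 1 or 2 counts in each well and was at 0 in 2 to 4 wells of each group.

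Fitted without the filter, none of the class II members was called in any comparison. At 30 mM the log2 values were -0.35 for Cd74 (95% interval -1.21 to 0.51), -0.28 for H2-Ab1 (-1.16 to 0.60) and -0.51 for H2-Aa (-2.32 to 1.31). At 10 mM they were 0.32 for Cd74 (-0.57 to 1.22), -0.27 for H2-Ab1 (-1.15 to 0.60) and 0.31 for H2-Aa (-1.51 to 2.12). The edgeR adjusted p ranged from 0.71 to 0.945. Falls as large as the Tap1 rise lay within each of the 3 intervals at 30 mM, so these fits could not tell such falls from no change. A rise of that size lay within the intervals of H2-Ab1 and H2-Aa and just above that of Cd74.

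The control wells of the 2 experiments differed widely in their content of microglial RNA. None of the class I members was called between them by edgeR with the low-count filter, which the class II members did not pass. In the untreated cultures of experiment 2 the summed microglia markers were 10.8 times those of experiment 1 (3287 against 304 CPM), border macrophage markers 4.12 times (425 against 103 CPM) and dendritic cell markers 1.83 times. Of the microglia markers, 12 of 12 that could be tested were lower in experiment 1, with a median log2 difference of -3.44. P2ry12 was at 0 in 1 control well of experiment 1, and no marker of the 14 was at 0 in a well of experiment 2. The summed level of Cd74, H2-Aa and H2-Ab1 was 5.84 CPM in the experiment 2 controls (range 2.84 to 7.96) and 7.98 CPM in those of experiment 1 (range 3.15 to 10.5), which is 0.732 times as high. The sum of the class I members was 648 CPM (range 596 to 673) against 701 CPM (range 627 to 788), or 0.924 times as high. Both sums overlapped between the experiments.

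**Figure D3:**
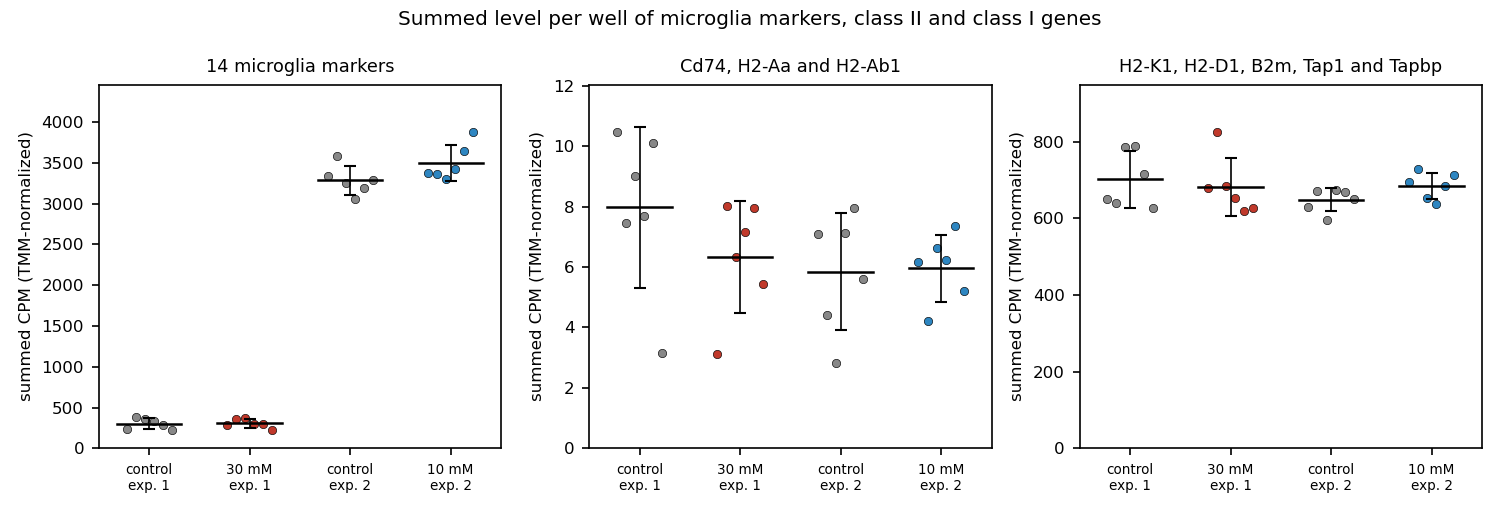
Summed TMM-normalized CPM per well of 14 microglia markers, of the 3 class II genes and of the 5 class I genes, on axes that start at 0; points are wells, lines are means and bars are 1 SD (n = 6). The microglia sum is between 219 and 385 CPM in experiment 1 and between 3052 and 3878 CPM in experiment 2, while the class II and class I sums overlap between all groups.

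Of the 5 class I members, 0 were called between the controls of the experiments by edgeR, where 43.6% of 13479 genes were, and 1, Tapbp, had an unadjusted p under 0.05. The log2 difference, experiment 1 minus experiment 2, was 0.14 for H2-K1 (SE 0.0696, edgeR adjusted p = 0.102), -0.10 for H2-D1 (SE 0.0932, adjusted p = 0.391) and 0.23 for Tap1, given above. For B2m it was 0.04 (SE 0.0652, edgeR adjusted p = 0.646), and -0.02 when wells were scaled by total counts. Tapbp came nearest to the threshold, with 0.18 (SE 0.0776, edgeR adjusted p = 0.0574), and it crossed the threshold without the low-count filter (0.23, edgeR adjusted p = 0.0282) and in 6 of the 12 fits that left out 1 well. Without the filter Cd74 was at 0.71 (95% interval -0.15 to 1.56), H2-Ab1 at 0.21 (-0.61 to 1.04) and H2-Aa at 0.55 (-1.23 to 2.33). DESeq2 and limma voom called 0 of the 5 as well. These controls also serve in the comparisons with ethanol.

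The rest of the pathway was followed in 85 further genes in 10 lists, of which 84 were found and 53 could be tested at 30 mM. Their median log2 fold change at 30 mM was -0.07, beside 0.02 for all genes tested, and 1 was higher and 3 were lower, beside 3.02% called higher and 6.65% called lower among all genes. Ifngr1, a chain of the interferon gamma receptor, was higher by 0.35 (SE 0.113, edgeR adjusted p = 0.038; 50.5 against 41.0 CPM). Hfe, a class I-like molecule of iron regulation, was at -0.59 (SE 0.195, edgeR adjusted p = 0.046; 14.6 against 23.1 CPM). Psme1, which encodes a subunit of the proteasome activator PA28, was at -0.29 (SE 0.0973, edgeR adjusted p = 0.0497; 76.7 against 96.9 CPM). Ifit2, an interferon-induced gene, was at -0.82 (SE 0.245, edgeR adjusted p = 0.0252; 8.37 against 15.3 CPM). These calls were less steady than that of Tap1: leaving out 1 well kept Ifngr1 in 6 of 12 fits, Hfe in 3, Psme1 in 2 and Ifit2 in 9, and of the 7 other settings 5, 5, 4 and 6 kept them, and the highest adjusted p over these 19 fits, by whichever tool, was 0.148, 0.139, 0.142 and 0.0861.

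Partners and neighbours of Tap1 and the chaperones of the heavy chains given here had no call at 30 mM, and Tap2 and Psmb9 had none at 10 mM. Calr and Pdia3 at 10 mM, each called in 1 other fit, are given below. Tap2, its partner in the transporter, was at 0.26 at 30 mM (SE 0.231, edgeR adjusted p = 0.522; 15.4 against 13.2 CPM) and at 0.06 at 10 mM (SE 0.204, adjusted p = 0.961). Psmb9, an immunoproteasome subunit, is the next gene to Tap1 in the RefSeq order of the chromosome and is known to share a promoter region with it. It was at 0.53 at 30 mM with a wide error (SE 0.309, edgeR adjusted p = 0.299; 8.46 against 5.98 CPM) and at 0.31 at 10 mM (SE 0.252, adjusted p = 0.742; 8.93 against 7.25 CPM). Psmb8, the neighbour on the other side, was at -0.28 at 30 mM (SE 0.154, edgeR adjusted p = 0.267). Of the chaperones that fold new heavy chains, calnexin (Canx) was at 0.05 (SE 0.0594, edgeR adjusted p = 0.659; 604 against 604 CPM). Calreticulin (Calr) was at -0.00152 (SE 0.0597, edgeR adjusted p = 0.992; 917 against 949 CPM), a value whose sign turned with RLE scaling, with total counts and with limma voom.

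The immunoproteasome is a form of the proteasome whose exchanged subunits favour peptides for class I. Of its 5 listed genes, 1 (Psme1) was lower at 30 mM and 0 were higher, with a median of -0.28, beside 6.65% lower and 3.02% higher among all genes. At 10 mM 0 were called, beside 0.657% of all genes, with a median of 0.05. 1 call among 5 genes is too few to be told apart from the shares of all genes. At 30 mM 3 of the 5 had an unadjusted edgeR p under 0.05, beside 9 of the 53 tested list genes. Values were negative for 4 of the 5, beside 32 of the 53. Psmb10 was the list gene whose responses differed between the experiments. It had a mean of 45.9 CPM at 30 mM (range 34.3 to 55.5) and of 59.1 CPM in those controls (range 43.3 to 71.5), and a mean of 68.7 CPM at 10 mM (range 61.6 to 77.2) and of 59.8 CPM in the controls of experiment 2 (range 52.5 to 66.6). The log2 fold change was -0.32 at 30 mM (edgeR adjusted p = 0.0702) and 0.18 at 10 mM (edgeR adjusted p = 0.493), and neither passed, although that at 30 mM was called in 1 fit of all wells (edgeR adjusted p = 0.0391) and in 3 of 12 fits that left out 1 well. The difference between them was -0.51 (SE 0.147, edgeR adjusted p = 0.0334), which held in 16 of 24 fits that left out 1 well, and it was the 1 of 60 list genes called in that comparison, where 2.40% of all genes were called in the same direction.

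Of 15 tested genes of interferon gamma signalling and its targets, 1 (Ifngr1) was called at 30 mM, where 9.67% of all genes were, with a median of 0.12. Irf1, a direct target that activates class I genes, was at -0.17 (SE 0.185, edgeR adjusted p = 0.631). Gbp3, a guanylate-binding protein gene, had 30 mM wells that all lay above the controls, at 0.35 (SE 0.126, edgeR adjusted p = 0.0661), as did those of 0.612% of all genes. Of 10 tested type I interferon targets, 1 (Ifit2) was lower, beside 6.65% called lower among all genes. The rest had unadjusted edgeR p-values of at least 0.05. In all, 9 had negative values, and the median was -0.21, beside 0.02 for all genes tested. The class I regulator Nlrc5 (6.66 against 6.67 CPM) and the class II regulator Ciita (8.60 against 5.84 CPM) did not pass the low-count filter at 30 mM.

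At 10 mM, 0 of 56 tested list genes were called by edgeR, beside 0.657% of all genes, with 10 at an unadjusted p under 0.05 and a median of 0.05, beside -0.00234 for all genes tested. Pdia3, an oxidoreductase of the peptide-loading complex, came nearest, at 0.24 (SE 0.0638, edgeR adjusted p = 0.0565; 218 against 183 CPM), and DESeq2 called it (adjusted p = 0.0354). Its 10 mM wells all lay above the controls, as was true of 0.510% of all genes. Calr was at 0.18 (SE 0.055, edgeR adjusted p = 0.108, and called without replicate 1 of the 10 mM wells, adjusted p = 0.0476). Among the other class I heavy chains, H2-T24 was at 0.51 (SE 0.219, edgeR adjusted p = 0.397; 12.6 against 8.66 CPM). Reads of the H2-T and H2-Q genes are uncertain because the genes are close copies of each other.

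**Figure D4:**
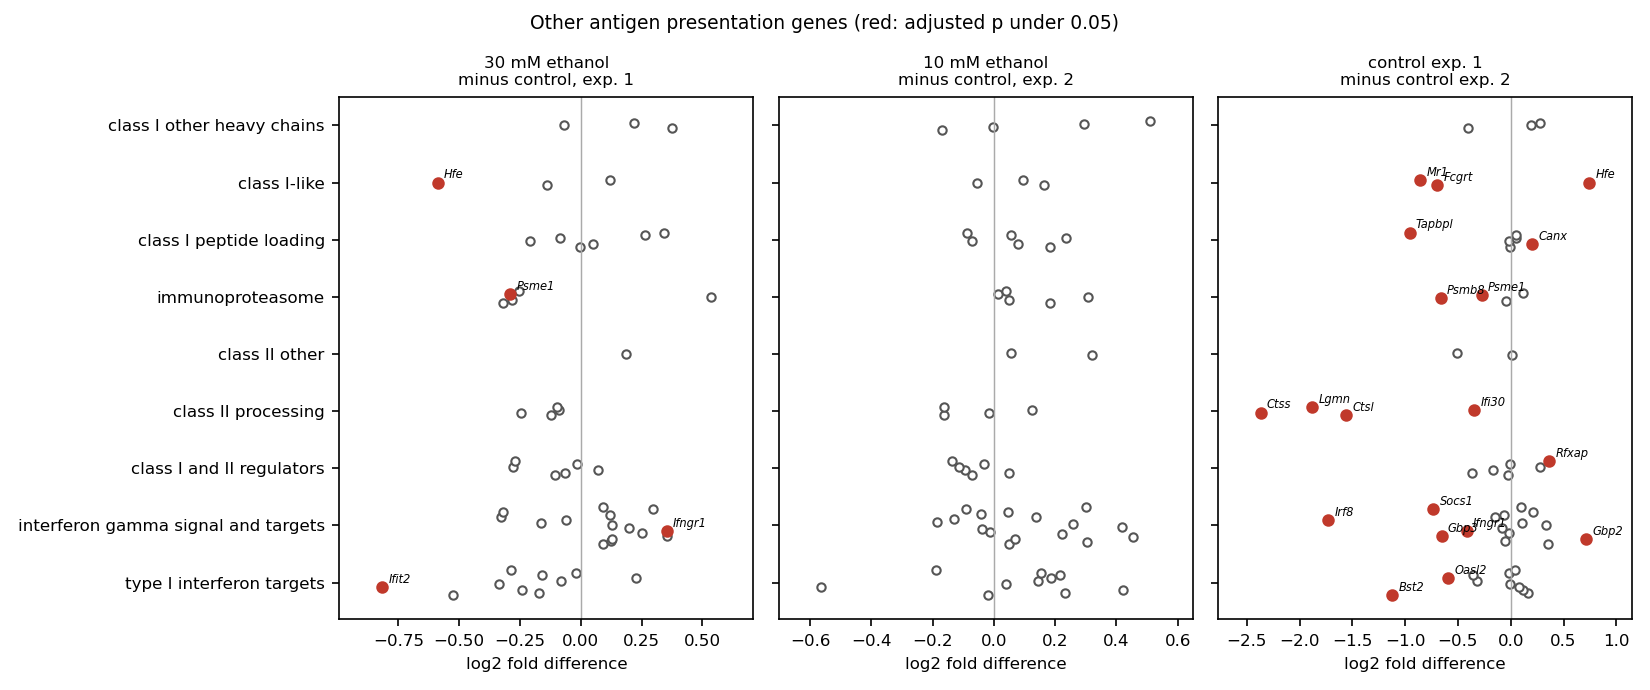
Log2 differences of the tested genes of the 9 pathway lists with a tested member, for 30 mM, for 10 mM and for the controls of experiment 1 minus those of experiment 2; each point is a gene, red marks an adjusted p under 0.05, and the horizontal axes differ in range between panels. Red points are 4 of 53 at 30 mM, 0 of 56 at 10 mM and 19 of 53 between the controls, in the order of the shares of all genes called (9.67%, 0.657% and 43.6%).

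Between the controls, 4 of 53 tested list genes were higher and 15 lower in experiment 1, beside 21.3% higher and 22.3% lower among all genes. The genes that cut and reduce proteins for class II were lower in 4 of 4: the endosomal proteases Ctss (-2.37; 44.6 against 226 CPM), Lgmn (-1.88; 132 against 471 CPM) and Ctsl (-1.56; 463 against 1327 CPM), and the thiol reductase Ifi30 (-0.35, edgeR adjusted p = 0.0149, and not called in 2 of 7 other settings). Irf8, a transcription factor of myeloid cells, was at -1.73 (24.6 against 78.9 CPM). All control wells of experiment 1 lay below all those of experiment 2 for Ctss, Lgmn, Ctsl and Irf8, as they did for 7.66% of all genes. So the class II chains and their escort stayed near the floor in both experiments. They did not pass the low-count filter and were not called without it. The processing genes, which also serve general protein breakdown in lysosomes, differed. On the class I side, Tapbpl, which edits peptides as tapasin does, was at -0.96 (SE 0.234, edgeR adjusted p = 0.000521), Psmb8 at -0.66 (SE 0.132, edgeR adjusted p = 2.22e-05) and the neonatal Fc receptor gene Fcgrt at -0.70 (SE 0.136, edgeR adjusted p = 1.46e-05). Hfe, at 0.74, and Canx, at 0.20, were higher in experiment 1 (edgeR adjusted p = 0.000338 and 0.00209). The microglia markers were also lower in experiment 1, by the amounts given above, opposite in direction to Hfe and Canx. The part of microglial RNA in these differences was not tested.

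H2-K1, the more abundant heavy chain, was also compared with 13350 genes over the 24 wells, after the group means were taken out. Its closest genes were Trpc4ap (Pearson r 0.84, Spearman rho 0.88), Fgfrl1 (0.83 and 0.85), 0610012G03Rik (0.82 and 0.80), Mrps2 (0.81 and 0.79) and Snn (0.81 and 0.79). H2-D1 had an r of 0.57 with H2-K1, B2m 0.49, Tap1 0.27 and Tapbp 0.23. For class II, H2-Ab1, whose mean log2 CPM over all wells was just above that of Cd74, had Ss18l2 as its closest gene (r 0.69, rho 0.59), at counts too low to read. These values describe wells that share library preparation and composition, and carry no test.

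Windows of the read length near the 3′ ends told the members apart from other genes by exact match. In the last 500 bases of the GENCODE M21 coding transcripts of each member, 0 windows of 100 bases occurred in another gene. For windows of 50 bases the share was 9.6% for H2-K1, 8.92% for H2-D1, 4.83% for Tapbp and 2.75% for Tap1, where the other gene was Tap2, and 0 for the other 4 members. A share of trimmed, shorter reads of the heavy chains may therefore be uncertain. How the reads behind the deposited counts were assigned was not tested.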

How the data were processed

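RNA of 24 wells was sequenced as single-end reads of 100 bases. What the authors deposited is 1 table of raw read counts, genes by wells, not normalized. Per the submitters' processing notes, reads were handled with cutadapt 1.18 and STAR, and the build was GRCm39. The counter, annotation, use of strand and removal of duplicates are not given in the sources used here, so counts of overlapping genes are uncertain, and coordinates are given only for RefSeq promoters. Symbols were matched by identifier for 52083 of 55359 genes.

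The wells of a dose and its own controls were fitted together by edgeR 4.0.16 (R 4.3.3; quasi-likelihood test, TMM, filterByExpr with a minimum of 10 counts). Benjamini-Hochberg adjustment ran over all genes tested, and an adjusted p under 0.05 was called. The difference between responses was an interaction over all wells. The test was checked on simulated counts. No pair of wells of a group agreed within sampling noise (chi-square per degree of freedom of at least 1.07). Likeness was computed on log2 CPM (prior count 2) for genes of mean log2 CPM of at least 3.

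All members are named, and from the other lists mainly genes that were called, with partners of Tap1, regulators and genes near the threshold added after their values were seen. Some list genes are not reported here. Members and lists were chosen with earlier results of these data known. Alternatives were RLE and total-count scaling, no low-count filter, DESeq2 1.42.0, limma voom (3.58.1), 1 fit of all wells, a replicate block and leaving out each well.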

Additional observations from a re-analysis of the deposited data

Results flagged for a closer look

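Each of 38 genes, the 8 members and further genes of the pathway lists, was examined in 4 groups of 6 wells for a single well far from the others. In 8 of 152 such series a well stood apart, and chance gives about 7.6. Among the members this was H2-Ab1 in replicate 3 of the experiment 2 controls, at 0.710 CPM beside a next value of 2.81 CPM, which rests on 1 count. Among the list genes it was Ctsl at 354 CPM in replicate 6 of the experiment 1 controls (next 458 CPM), Ifi30 at 50.2 CPM in replicate 2 of the experiment 2 controls (next 41.4 CPM) and Irf8 at 21.2 CPM in replicate 3 of the experiment 1 controls (next 24.4 CPM). Irf1 was at 22.4 CPM in replicate 6 of the experiment 2 controls (next 16.6 CPM), and Ciita at 3.39 CPM in replicate 2 of the experiment 1 controls (next 5.91 CPM). Socs1, a feedback inhibitor of interferon signalling, had 2 such wells: 16.8 CPM in replicate 5 of the experiment 1 controls (next 11.6 CPM) and 18.6 CPM in replicate 4 of the 30 mM wells (next 13.5 CPM).

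Psmb10 stood out because its ethanol responses differed between the experiments, by -0.51 on the log2 scale (30 mM minus 10 mM, edgeR adjusted p = 0.0334). Dose, experiment and batch cannot be told apart in that difference. Psmb10 was the 1 of 60 list genes called there, where 2.40% of all genes were called in the same direction. The call held in 16 of 24 fits that left out 1 well.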

How the results depend on the processing

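Tap1 kept its call at 30 mM and stayed uncalled at 10 mM in all settings and left-out wells that gave an adjusted p, which DESeq2 did not at 10 mM. Of 147 member values under other settings, 138 kept direction and side of the threshold and 8 changed sign. With 1 well left out, 274 of 300 kept both and 20 changed sign. Values without an adjusted p from DESeq2, among them the class II members at both doses and Tap1 at 10 mM, were counted as uncalled. Sign changes were those of values near 0, and the cause was not tested. H2-D1 at 30 mM was -0.0277 without the filter, -0.0216 by DESeq2 and -0.000813 in 1 fit of all wells, and ran from -0.0611 to 0.0742 with 1 well left out. B2m in the difference of responses was -0.000787 by RLE, -0.0441 without the filter and -0.0199 by DESeq2, and ran from -0.0663 to 0.0459 with 1 well left out. H2-Ab1 in that difference was -0.0253 without the filter and 0.00246 by DESeq2. B2m was -0.0163 between controls by total counts, and ran from -0.000646 to 0.0677 at 10 mM with 1 well left out. Among list genes, Calr at 30 mM was 0.00241 by RLE, 0.00516 by total counts and 0.00204 by limma voom, and ran from -0.0391 to 0.0274 with 1 well left out. Tap2 at 10 mM ran from -0.0524 to 0.17 with 1 well left out. Genes called higher at 30 mM numbered 400 of 1280 called, but 193 of 947 by DESeq2; they numbered 279 of 1114 without the filter and 581 of 1599 in 1 fit of all wells. Genes called in all at 10 mM numbered 89, but 58 by DESeq2 and 21 in 1 fit of all wells, and 37 to 95 with 1 well left out (40 without replicate 2 and 45 without replicate 4 of the 10 mM wells, 57, 37 and 46 without replicates 4, 5 and 6 of their controls). Those called for the difference of responses numbered 481, and 329 to 759 with 1 well left out (759 and 723 without replicates 1 and 2 of the 30 mM wells). Between controls, 1 member (Tapbp) was called without the filter, and 0 to 1 with 1 well left out, from control replicates 2, 5 and 6 of experiment 1 and 2, 3 and 5 of experiment 2.

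The replicate numbers did not pair the wells: correlations of same-numbered wells ran from -0.17 to 0.24 at 30 mM, from -0.04 to 0.04 at 10 mM and from -0.04 to 0.06 between controls, and 1, 0 and 2 of 6 wells were closest to their own number. With a replicate block the 30 mM comparison gave 1208 called genes, the 10 mM comparison 68, the difference of responses 461 and the controls 5860, and of the members Tap1 at 30 mM. Psme1 was not called with it (edgeR adjusted p = 0.06). Depth limits the class II members, at 0 to 10 counts a well.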
